A study of Mus musculus with 8 samples.

Results

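The eicosanoid synthesis genes of mouse blood monocytes (MCs) were examined across MC subsets and diabetic mouse models. The genes were chosen by symbol, as 10 enzymes and helper proteins that make eicosanoids or break down platelet-activating factor: Pla2g4a, Alox5, Alox5ap, Lta4h, Ltc4s, Ptgs1, Ptgs2, Ptges, Tbxas1 and Pla2g7. All 10 were found among the 16486 genes of the expression table. The rule used no measured value, but the 10 genes were chosen with earlier results of these data known, as were the gene lists used below. The values are log2 expression values without read counts, so the depth behind each value is unknown, and levels are compared between libraries of a gene and never between genes.

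Bulk RNA-Seq was analysed for 8 libraries of MCs sorted from the blood of male mice 20 to 22 weeks old. Ly6Chigh MCs are the classical subset and Ly6Clow MCs the nonclassical subset, both sorted as CD11b+Ly6G- cells. Control (CT) mice were wild type C57/BL6 mice and gave 2 libraries of each subset. T1DM mice, also C57/BL6, received streptozotocin (STZ), which kills insulin-producing beta cells, at 50 mg/kg a day for 5 days when 8 weeks old, and gave 1 library of each subset. T2DM mice were db/db mice, which carry a leptin receptor that does not work, and gave 1 library of each subset. Each group was a pool of RNA from 5 mice, so p-values measure the spread between libraries, which may be technical, and not the spread between mice. In fits of subset and mouse group over all 8 libraries, that spread also includes differences of the subset effect between mouse groups. Each diabetic model has 1 library of a subset, so it adds no replicate spread. The CT libraries came from a NextSeq 500 run and those of both diabetic models from a HiSeq 4000, so the effect of diabetes and that of the sequencer cannot be told apart. Across genes, the variance of CT minus diabetic means was 0.178 of that expected from the difference between T2DM and T1DM. A difference shared by all diabetic libraries is thus small in these values. Whether a batch adjustment made it so is not given in the sources used here.

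Eicosanoids are short-lived lipid signals made from arachidonic acid, which cytosolic phospholipase A2 (Pla2g4a) cuts from membranes. In the leukotriene branch, 5-lipoxygenase (Alox5) works with its helper FLAP (Alox5ap), and the product is turned into the neutrophil attractant LTB4 by Lta4h or into the cysteinyl leukotriene LTC4 by Ltc4s. In the prostanoid branch, the cyclooxygenases Ptgs1 (COX-1, usually constitutive) and Ptgs2 (COX-2, usually inducible) make PGH2, which Ptges turns into PGE2 and Tbxas1 into thromboxane. Pla2g7 encodes the secreted enzyme that breaks down platelet-activating factor (PAF), a related lipid mediator, and is also known as lipoprotein-associated phospholipase A2.

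The subset labels were checked against marker lists, given as the sum of the linear values (2 raised to the log2 value). Classical markers such as Ly6c2 and Ccr2 summed to between 11100 and 28000 in Ly6Chigh and between 1110 and 1470 in Ly6Clow libraries, and nonclassical markers to between 1550 and 3100 against between 3380 and 4350. In the pooled test below, 6 of 7 classical markers were called higher and 4 of 9 nonclassical markers lower in Ly6Chigh MCs. The nonclassical marker Cx3cr1 was higher in value in CT Ly6Chigh (8.59 and 8.61) than in CT Ly6Clow MCs (7.76 and 7.78), and Nr4a1 and Itgal also had higher values in the CT Ly6Chigh libraries. Markers of other cells also moved with the subsets. B cell markers summed to between 252 and 523 in Ly6Chigh and between 4200 and 5330 in Ly6Clow libraries, NK cell markers to between 28.2 and 130 against between 179 and 918, and eosinophil markers to between 5.75 and 12.6 against between 58.4 and 78.7. Only 3 of the 6 eosinophil markers were found, 1 of them was called (Il5ra, with 5.93, 5.80, 6.13 and 5.94 in the Ly6Clow libraries), and Siglecf and Ccr3 overlapped between the subsets. T cell markers summed to between 23.4 and 33.2 against between 51.1 and 56.9, and 1 of the 10 was called lower in Ly6Chigh MCs. Dendritic cell markers summed to between 68.9 and 125 against between 120 and 223, so these sums overlapped. Of the 6 dendritic cell markers found, 2 were called lower, and Flt3 was higher in CT Ly6Chigh (5.44 and 5.58) than in CT Ly6Clow MCs (4.93 and 4.35). All 10 B cell markers and all 8 NK cell markers were called lower in Ly6Chigh MCs in the pooled test below, and the part of these cells in the subset differences of the eicosanoid genes was not tested. In such bulk samples, fewer cells of a type and less RNA per cell cannot be told apart.

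Promoters are shown for the called genes with the largest difference in each direction that have a RefSeq entry, Pla2g7 (higher in Ly6Chigh MCs) and Ptgs2 (higher in Ly6Clow MCs), and for Alox5, which was added after its values were seen. Those of Ptgs2 and Alox5 run from 250 bases before to 50 bases after the annotated start of the gene. That of Pla2g7 lies inside the gene, which starts at 43567994, so it is not the region before the gene start. All are given 5′ to 3′ on the strand of the gene, from RefSeq on GRCm38.p6, and 9 of the 10 genes had an entry (Alox5ap had none). Capitals mark matches, on either strand, to GGGCGG (Sp1), GAGGAAG (PU.1, a factor of myeloid cells) and TTNNGNAA (C/EBP).
Pla2g7, chr17:43568201-43568500, plus strand: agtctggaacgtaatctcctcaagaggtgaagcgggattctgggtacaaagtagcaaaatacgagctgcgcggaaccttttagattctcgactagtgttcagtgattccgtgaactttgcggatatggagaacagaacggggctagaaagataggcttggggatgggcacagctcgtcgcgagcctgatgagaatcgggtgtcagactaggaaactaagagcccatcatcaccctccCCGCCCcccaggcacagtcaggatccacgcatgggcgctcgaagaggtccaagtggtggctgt
Ptgs2, chr1:150099781-150100080, plus strand: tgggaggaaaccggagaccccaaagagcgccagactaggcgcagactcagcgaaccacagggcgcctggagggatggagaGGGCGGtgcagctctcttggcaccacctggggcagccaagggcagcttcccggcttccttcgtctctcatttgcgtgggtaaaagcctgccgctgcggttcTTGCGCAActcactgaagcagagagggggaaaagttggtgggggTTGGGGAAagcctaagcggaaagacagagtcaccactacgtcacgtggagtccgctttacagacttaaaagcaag
Alox5, chr6:116461129-116461428, minus strand: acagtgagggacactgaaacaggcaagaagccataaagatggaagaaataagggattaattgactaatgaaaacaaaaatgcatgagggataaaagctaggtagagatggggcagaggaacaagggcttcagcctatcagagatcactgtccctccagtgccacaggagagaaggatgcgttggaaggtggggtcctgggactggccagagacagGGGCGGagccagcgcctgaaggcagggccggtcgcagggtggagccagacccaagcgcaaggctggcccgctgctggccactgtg
GGGCGG occurred once in each of these 3 windows, at base 238 in Pla2g7, 81 in Ptgs2 and 216 in Alox5, and in 35.7% of the 32851 promoters of the table. TTNNGNAA occurred in Ptgs2 at bases 182 and 226, and in 40.7% of all promoters. GAGGAAG was found in none of the 3 windows, in those of Ltc4s, Ptgs1 and Tbxas1 among the other genes, and in 13.6% of all promoters. The windows of Ptgs1 and Tbxas1 also lie inside their genes. A match is a description of the letters and not a binding site.

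The first question was how Ly6Chigh and Ly6Clow MCs differ in these genes. Ly6Chigh MCs had higher Alox5ap, Pla2g7 and Tbxas1 and lower Alox5 and Ptgs2 than Ly6Clow MCs, so both directions occurred within the leukotriene branch and within the prostanoid branch. The differences were 2.25 for Alox5ap, 1.32 for Pla2g7, 1.08 for Tbxas1, -1.11 for Alox5 and -2.27 for Ptgs2, as Ly6Chigh minus Ly6Clow on the log2 scale (log2FC), where 1 is a 2-fold difference. The test was limma, a linear model for every gene whose spread estimate borrows from the other genes, over the 8 libraries with mouse group as a covariate (the pooled test). The call required an adjusted p under 0.01 (Benjamini-Hochberg over 16486 genes) together with an absolute log2FC above 1. By this rule 5 of the 10 genes were called, beside 12.1% of all genes. Of these, 3 were higher in Ly6Chigh MCs, beside 5.37% of all genes, and 2 were lower, beside 6.76%. The median log2FC was -0.0052 over the 10 genes and -0.082 over all genes.

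Within CT mice alone, with 2 libraries against 2, Alox5ap and Pla2g7 were called, both higher in Ly6Chigh MCs. That is 2 of 10, beside 3.52% of all genes. When any 1 of the 4 CT libraries was left out, the log2FC stayed between 2.32 and 2.40 for Alox5ap and between 1.20 and 1.28 for Pla2g7. With 1 residual degree of freedom, no gene of the table was called in those fits, so they say nothing on the stability of the calls. Without the variance trend in limma, at 2 residual degrees of freedom, no gene was called and 5810 genes had an unadjusted p under 0.05. The pooled test, with 4 residual degrees of freedom, is the one described for each gene below. The values of the 4 Ly6Chigh and the 4 Ly6Clow libraries did not overlap in 6 of the 10 genes with a separation in either direction, beside 32.8% of all genes. Ly6Chigh values lay above Ly6Clow values in 3 of them (Alox5ap, Ptges and Tbxas1), beside 16.4% of all genes, and below in the other 3 (Alox5, Lta4h and Ptgs2), beside 16.3%.

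**Figure D1:**
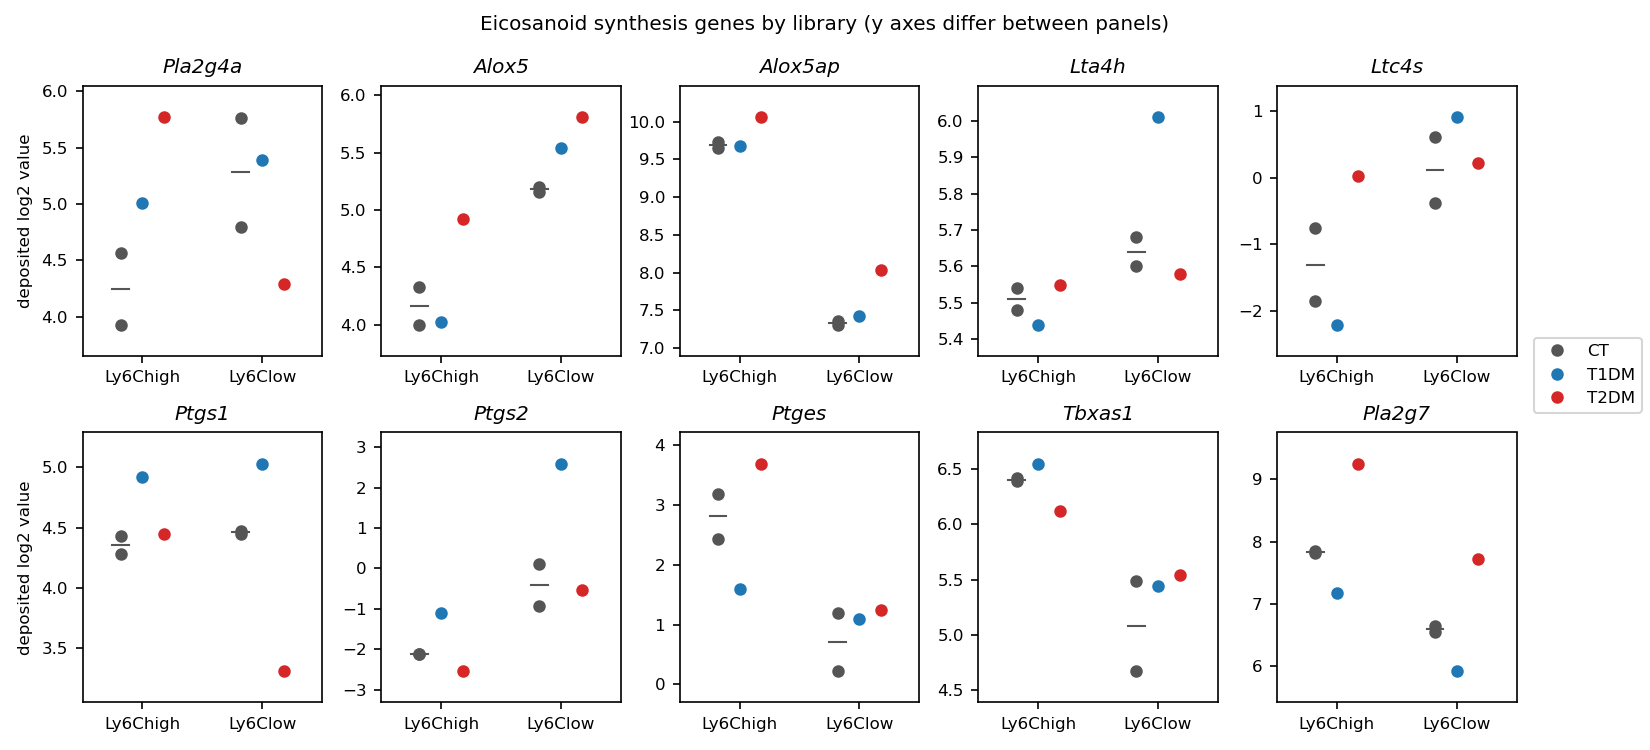
Deposited log2 value (y axis, its range differing between panels) of each of the 10 genes in Ly6Chigh and Ly6Clow MCs (x axis), 1 point per library, coloured by mouse group, with a line at the mean of the 2 CT libraries. Alox5ap separates the subsets in every mouse group, from 9.65 to 10.06 in Ly6Chigh and from 7.31 to 8.04 in Ly6Clow MCs, and Alox5 does so in the other direction.

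Alox5ap (chr5:149265004-149288153 on GRCm38.p6), whose protein hands arachidonic acid to 5-lipoxygenase, measured 9.73 and 9.65 on the log2 scale in the CT, 9.68 in the T1DM and 10.06 in the T2DM Ly6Chigh libraries. In Ly6Clow MCs it had 7.36 and 7.31 in the CT, 7.43 in the T1DM and 8.04 in the T2DM library. The libraries of a subset lay close together and the gap between the subsets was wide. The pooled log2FC was 2.25 (SE 0.082, limma adjusted p = 9.02e-07), and the difference was 2.36 within CT, 2.25 within T1DM and 2.03 within T2DM mice.

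Alox5 (chr6:116410071-116461178), the lipoxygenase itself, went the other way. Its log2 values were 4.33 and 4.00 in the CT, 4.02 in the T1DM and 4.92 in the T2DM Ly6Chigh libraries, and 5.20 and 5.16 in the CT, 5.54 in the T1DM and 5.81 in the T2DM Ly6Clow libraries. Every Ly6Clow library was above every Ly6Chigh library, and the T2DM library was the highest of each subset. Over all libraries the log2FC was -1.11 (SE 0.156, adjusted p = 0.000739 by limma). Without the T1DM libraries the log2FC was -0.98 with an adjusted p of 0.00475 (limma), which is under the 2-fold limit of the call.

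Neither of the enzymes that act on the product of Alox5 was called. Lta4h (chr10:93453396-93484896), which makes LTB4, had 5.48 and 5.54 in the CT, 5.44 in the T1DM and 5.55 in the T2DM Ly6Chigh libraries, and 5.68 and 5.60 in the CT, 6.01 in the T1DM and 5.58 in the T2DM Ly6Clow libraries. The subsets did not overlap but lay close together, and the pooled log2FC was -0.21 (SE 0.125, 95% interval -0.50 to 0.07, limma adjusted p = 0.228). Ltc4s (chr11:50236461-50238532), which makes LTC4, was near the low end of the scale, with -0.75 and -1.86 in the CT, -2.21 in the T1DM and 0.03 in the T2DM Ly6Chigh libraries, and -0.38 and 0.61 in the CT, 0.91 in the T1DM and 0.22 in the T2DM Ly6Clow libraries. The subsets overlapped through the T2DM Ly6Chigh library, and the pooled log2FC was -1.54 (SE 0.557, 95% interval -2.80 to -0.27, limma adjusted p = 0.0637).

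In the prostanoid branch, the cyclooxygenases differed from each other. Ptgs2 (chr1:150100031-150108234), the inducible enzyme, had the same log2 value of -2.11 in both CT Ly6Chigh libraries, -1.10 in T1DM and -2.54 in T2DM Ly6Chigh MCs. In Ly6Clow MCs it had -0.93 and 0.12 in the CT, 2.59 in the T1DM and -0.54 in the T2DM library. The T1DM library was the highest of each subset, and every Ly6Clow library was above every Ly6Chigh library. The pooled log2FC was -2.27 (SE 0.491, limma adjusted p = 0.00728), but these are low values. Equal values in both CT Ly6Chigh libraries were found for 667 genes. The log2FC of Ptgs2 was -0.96 (limma adjusted p = 0.0387) when 1 was added on the linear scale, and the call was also lost without the T1DM libraries (-1.80, limma adjusted p = 0.0357), with quantile normalization (-1.70), without the variance trend, or without any single library other than CT Ly6Clow replicate 1.

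Ptgs1 (chr2:36216742-36258593), the constitutive enzyme, had 4.28 and 4.43 in the CT, 4.92 in the T1DM and 4.45 in the T2DM Ly6Chigh libraries, and 4.47 and 4.45 in the CT, 5.03 in the T1DM and 3.31 in the T2DM Ly6Clow libraries. Only the T2DM Ly6Clow library stood clearly below the rest, and the subsets overlapped. Its pooled log2FC was 0.20 (SE 0.228, 95% interval -0.31 to 0.72, limma adjusted p = 0.535).

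Of the enzymes downstream of PGH2, Tbxas1 (chr6:38864159-39084590), the thromboxane synthase, had 6.42 and 6.39 in the CT, 6.55 in the T1DM and 6.12 in the T2DM Ly6Chigh libraries, and 5.49 and 4.67 in the CT, 5.44 in the T1DM and 5.54 in the T2DM Ly6Clow libraries. Every Ly6Chigh library was above every Ly6Clow library. Tbxas1 had a pooled log2FC of 1.08 (SE 0.199, limma adjusted p = 0.00318). The call was lost without CT Ly6Chigh replicate 1 (limma adjusted p = 0.0133), CT Ly6Chigh replicate 2 (0.0125), the T1DM libraries (0.0200) or either of them (0.0204 and 0.0196), and also without the variance trend (0.0207), and without CT Ly6Clow replicate 2 the log2FC was 0.87. With quantile normalization the log2FC was 0.96, also under the 2-fold limit.

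Ptges (chr2:30889471-30931020), the inducible PGE2 synthase, had 2.43 and 3.19 in the CT, 1.60 in the T1DM and 3.69 in the T2DM Ly6Chigh libraries, and 0.22 and 1.20 in the CT, 1.09 in the T1DM and 1.24 in the T2DM Ly6Clow libraries. The subsets did not overlap, with the T1DM Ly6Chigh library nearest to the Ly6Clow libraries. The pooled log2FC of 1.79 (SE 0.418) missed the call with a limma adjusted p of 0.0105, and without the T1DM libraries it was called at 2.22 (limma adjusted p = 0.00713). It was also called with quantile normalization, with low genes filtered out and with 1 added.

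The first and the last gene of the set also differed in how firmly the subsets separated. Pla2g7 (chr17:43567994-43612202), the PAF hydrolase, had 7.82 and 7.85 in the CT, 7.18 in the T1DM and 9.25 in the T2DM Ly6Chigh libraries, and 6.55 and 6.64 in the CT, 5.92 in the T1DM and 7.72 in the T2DM Ly6Clow libraries. Within each mouse group the Ly6Chigh value was higher, although the T2DM Ly6Clow library was above the T1DM Ly6Chigh library. The pooled log2FC was 1.32 (SE 0.088, limma adjusted p = 1.26e-05), and the difference was 1.24 within CT, 1.26 within T1DM and 1.53 within T2DM mice.

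Pla2g4a (chr1:149829618-149961290), which frees arachidonic acid, had 4.57 and 3.93 in the CT, 5.01 in the T1DM and 5.77 in the T2DM Ly6Chigh libraries, and 4.80 and 5.76 in the CT, 5.39 in the T1DM and 4.29 in the T2DM Ly6Clow libraries. Ly6Clow values were above Ly6Chigh values within CT and within T1DM mice, and below in T2DM mice. The pooled log2FC was -0.24 (SE 0.417, 95% interval -1.19 to 0.71, limma adjusted p = 0.698).

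**Figure D2:**
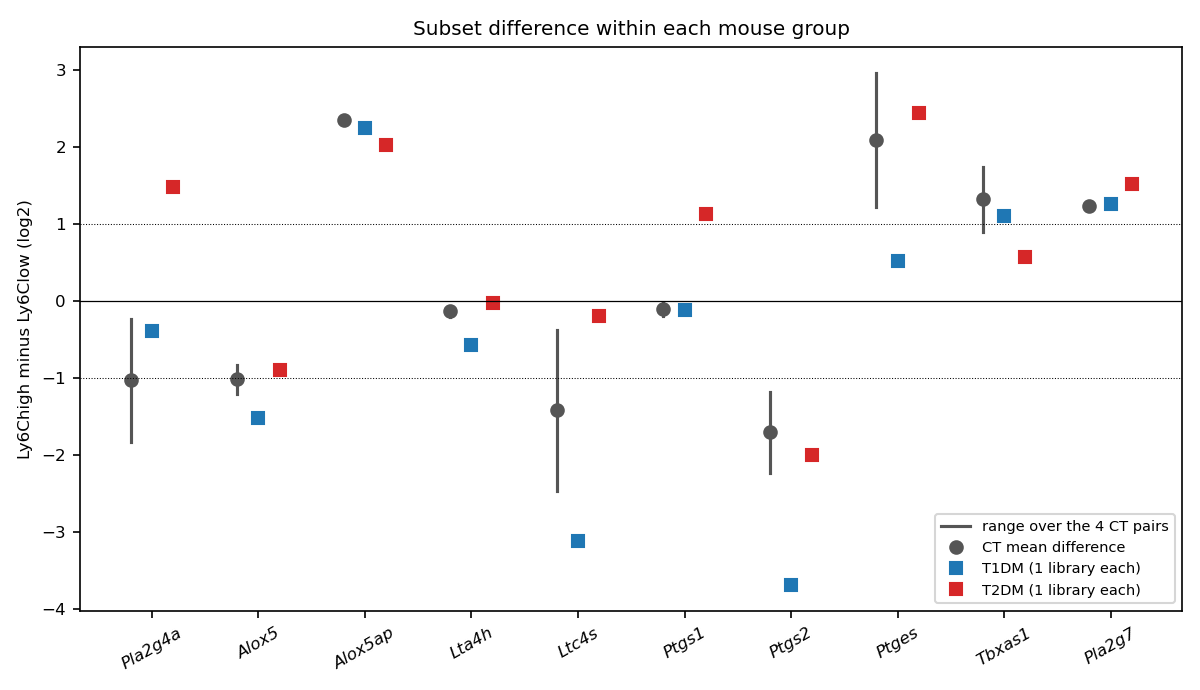
Ly6Chigh minus Ly6Clow (y axis, log2) for each gene (x axis) in CT (grey, mean difference with the range over the 4 pairs of CT libraries), T1DM (blue) and T2DM (red, 1 library of each subset), with dotted lines at a 2-fold difference. Alox5ap and Pla2g7 lie above 1 in all 3 mouse groups, Ptgs2 below -1, and Pla2g4a changes side between CT (-1.03) and T2DM (1.48).

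Within the diabetic models, each with 1 library of a subset and no test, 6 of 10 genes lay past 2-fold between the subsets in T1DM mice, beside 27.9% of all genes, and 6 of 10 in T2DM mice, beside 29.1%. In T1DM these were Alox5ap, Tbxas1 and Pla2g7 above and Alox5, Ltc4s and Ptgs2 below. In T2DM they were Alox5ap, Pla2g7, Ptges, Pla2g4a and Ptgs1 above and Ptgs2 below. The median difference was -0.25 over the 10 genes in T1DM and 0.86 in T2DM, beside -0.036 and -0.027 over all genes. The difference of Ly6Chigh minus Ly6Clow between diabetic and CT mice was tested as an interaction in limma, and 0 of 10 genes were called, as were 0 of all genes (0.0%). This fit had no term for the model, so differences between T1DM and T2DM mice entered its spread. The SE of Pla2g7 was 1.01 here and 0.088 in the pooled test, so the count says little about genes that differ between the models. At an unadjusted p under 0.05 there were 0 of 10 genes and 1084 of all genes. The largest interaction among the 10 genes was that of Pla2g4a, at 1.58 (SE 0.685, limma adjusted p = 0.760). Without the T1DM libraries, which leaves T2DM against CT mice with a spread from the CT libraries alone (2 residual degrees of freedom), 0 of 10 genes and 0 of all genes were called in this test, and 4 of 10 genes and 2297 of all genes had an unadjusted p under 0.05 (limma). The 4 were Pla2g4a (2.52, SE 0.765, limma adjusted p = 0.323), Ptgs1 (1.24, SE 0.237, adjusted p = 0.223), Alox5ap (-0.33, SE 0.082, adjusted p = 0.278) and Pla2g7 (0.29, SE 0.098, adjusted p = 0.358). Without the T2DM libraries, which leaves T1DM against CT mice with the same limit, 0 of 10 genes and 0 of all genes were called, with 0 of 10 genes and 1822 of all genes at an unadjusted p under 0.05 (limma).

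The next question was how the diabetic models, both run on the HiSeq 4000, differ from each other. Pla2g7 was higher in T2DM than in T1DM MCs, by 2.07 in Ly6Chigh MCs (9.25 against 7.18, or 4.20-fold) and by 1.80 in Ly6Clow MCs (7.72 against 5.92, or 3.48-fold). In the additive fit of subset and mouse group over the 8 libraries, the log2FC of T2DM minus T1DM was 1.93 (SE 0.124, 95% interval 1.65 to 2.22, limma adjusted p = 0.000178). It was the only 1 of the 10 genes called, beside 0.588% of all genes. The adjusted p was between 0.000757 and 0.00674 when any 1 library was left out, and 0.0149 in limma without the variance trend, where the call was lost. Each model is 1 pool of mice, so this difference is between pools.

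The other 9 genes were not called between the models. Ptgs1 was 3.31 in T2DM against 5.03 in T1DM Ly6Clow MCs and 4.45 against 4.92 in Ly6Chigh MCs (log2FC -1.10, SE 0.322, limma adjusted p = 0.157). Ptgs2 was lower in value in both T2DM libraries than in the T1DM library of the same subset, at -2.54 against -1.10 and -0.54 against 2.59 (log2FC -2.29, SE 0.694, limma adjusted p = 0.170). Alox5ap had a log2FC of 0.49 (SE 0.116, limma adjusted p = 0.0807), Alox5 of 0.58 (SE 0.220, limma adjusted p = 0.272) and Ptges of 1.12 (SE 0.590, limma adjusted p = 0.447). By single libraries, 4 of 10 genes lay past 2-fold in Ly6Chigh MCs (Ltc4s, Ptges and Pla2g7 above, Ptgs2 below), beside 19.3% of all genes, and 4 of 10 in Ly6Clow MCs (Pla2g7 above, and Pla2g4a, Ptgs1 and Ptgs2 below), beside 15.3%.

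Platelet markers moved with the models. Ptgs1 and Tbxas1 are well known as platelet enzymes, and MCs bind platelets in blood. The 13 platelet markers, such as Pf4 and Ppbp, summed to between 544 and 712 in the CT libraries, to 1096 and 1188 in T1DM and to 303 and 355 in T2DM Ly6Chigh and Ly6Clow MCs, and all 13 were higher in value in T1DM than in T2DM in both subsets. The T1DM libraries were thus also the highest for platelet markers, as they were for Ptgs1 and, within each subset, for Ptgs2. Tbxas1 was higher in T1DM than in T2DM in Ly6Chigh MCs (6.55 against 6.12) but not in Ly6Clow MCs (5.44 against 5.54). The part of platelets in the Ptgs1 and Tbxas1 values was not tested. Pla2g7, Alox5ap, Alox5 and Ptges had the opposite order of T1DM and T2DM to the platelet markers in both subsets. For Pla2g4a, Lta4h and Ltc4s, as for Tbxas1, the order differed between the subsets. Neutrophil markers summed to 485 in T2DM Ly6Chigh MCs, of which Lcn2 gave 86.5%, and to between 25.3 and 101 in the other libraries. Basophil markers summed to 177 in T2DM, 66.2 in T1DM and 26.5 and 25.6 in CT Ly6Clow MCs. In Ly6Chigh MCs they summed to between 9.09 and 21.2, so these sums also separated the subsets. Of the 8 basophil markers, 1 was called lower in Ly6Chigh MCs in the pooled test. The part of these cells in the values of the 10 genes was not tested.

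**Figure D3:**
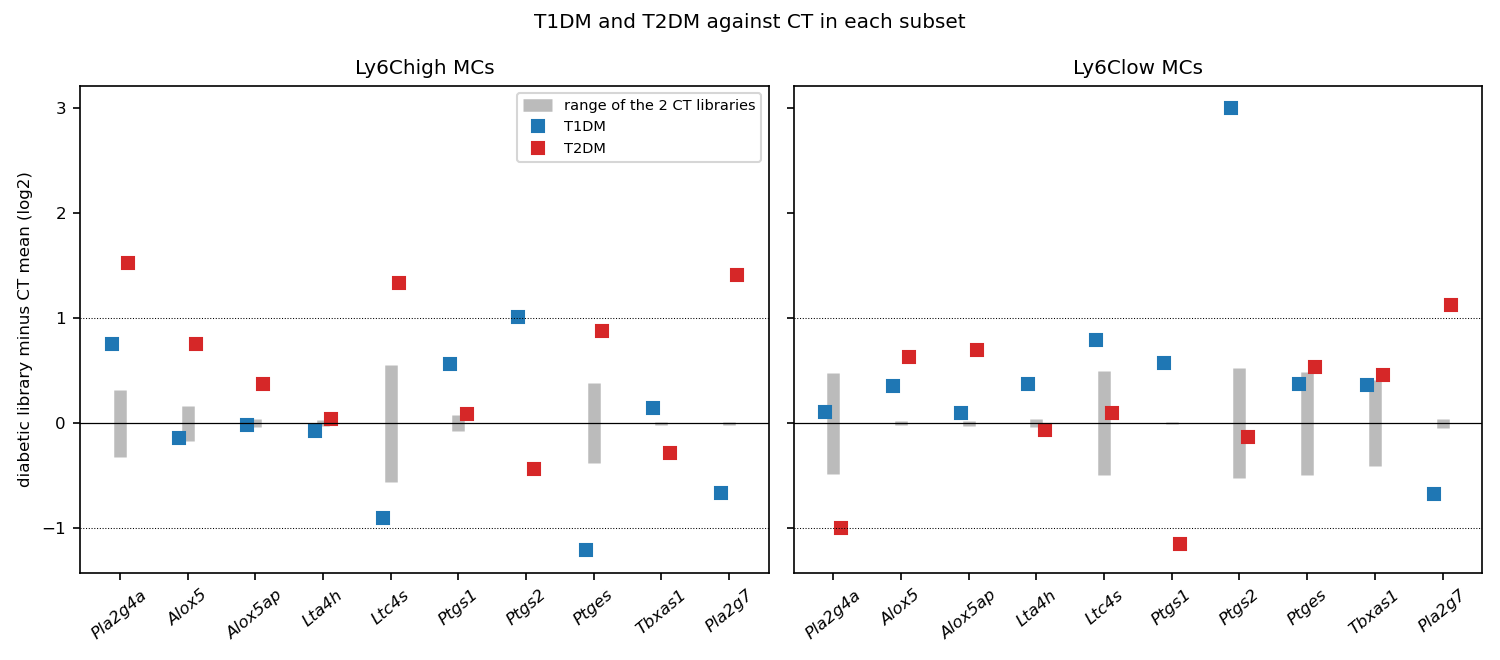
Log2 difference of the T1DM (blue) and T2DM (red) library from the mean of the 2 CT libraries (y axis) for each gene (x axis) in Ly6Chigh (left) and Ly6Clow MCs (right), with the range of the 2 CT libraries as a grey bar and dotted lines at 2-fold. Pla2g7 lies above 1 for T2DM and below 0 for T1DM in both subsets, and Ptgs2 of T1DM Ly6Clow MCs lies highest at 3.00.

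Diabetic MCs were then compared with CT MCs. In the mean of both models minus CT, 0 of 10 genes and 0 of all genes (0.0%) were called by limma. At an unadjusted p under 0.05 there were 400 genes of the table and 3 of the 10, Alox5 (log2FC 0.40, SE 0.156), Alox5ap (0.29, SE 0.082) and Pla2g7 (0.30, SE 0.088). Their limma adjusted p was 1.00. The CT values lie near the midpoint of the models over all genes (the variance ratio of 0.178 above). This difference is thus small across genes as a whole, though not of necessity for each gene, and the count of 0 says little about the 10 genes. Whether a batch adjustment was made is not given in the sources used here. All 10 log2FC were above 0, with a median of 0.29 beside 0.0074 over all genes. The share of all genes above 0 was not counted. Not all of the 10 stayed above 0 under the alternatives. Ptgs1 (0.020) was -0.024 with quantile normalization, and Tbxas1 (0.17) was -0.044 with libraries paired by replicate number. Ptges (0.15) was -0.11 without CT Ly6Clow replicate 1. The mean of Pla2g7 joined opposite values of the models, since it was 1.27 and called without the T1DM libraries and -0.67 without the T2DM libraries.

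By single libraries in Ly6Chigh MCs, 2 of 10 genes lay past 2-fold from the CT mean in T1DM, beside 10.1% of all genes. These were Ptgs2, at -1.10 against -2.11, and Ptges, at 1.60 against a CT mean of 2.81, with 2.01-fold and 2.31-fold differences. Neither lay past 2-fold when 1 was added on the linear scale, and Ptgs2 had the same low value in both CT libraries. In T2DM Ly6Chigh MCs there were 3 of 10, beside 13.8%. Pla2g4a was 2.87-fold, Pla2g7 2.65-fold and Ltc4s 2.52-fold above the CT mean, and all 3 were above both CT libraries. Ltc4s, at 0.03 against -0.75 and -1.86, did not lie past 2-fold when 1 was added on the linear scale.

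In Ly6Clow MCs, 1 of 10 genes lay past 2-fold in T1DM, beside 8.81% of all genes. This was Ptgs2, which was 8.00-fold above the CT mean and above both CT libraries. In T2DM Ly6Clow MCs there were 2 of 10, beside 10.8%, with Pla2g7 2.18-fold above and Ptgs1 2.22-fold below the CT mean. Pla2g4a was 1.99-fold below it, the nearest to the limit. These 4 comparisons share the CT libraries within a subset, and CT values lie near the midpoint of the models over all genes. The T1DM and T2DM differences from CT are thus not independent of each other. The low values of Ptgs2 and Ltc4s make their folds uncertain. CT replicates of Ptgs2 differed by 1.05 in Ly6Clow MCs, and those of Ltc4s by 1.11 in Ly6Chigh MCs.

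The rest of the pathway was followed in 6 lists of genes for arachidonic acid release, other leukotriene and lipoxygenase enzymes, other prostanoid enzymes, transport and breakdown, receptors, and PAF metabolism. Of 70 listed genes, 58 were in the table. In the pooled subset test 10 of the 58 were called higher and 4 lower in Ly6Chigh MCs, beside 5.37% and 6.76% of all genes. In CT alone 3 of the 58 were called, beside 3.52% of all genes, all higher (Cotl1, Ptgir and Ptafr). Their log2FC in CT stayed between 1.00 and 1.04, 1.86 and 2.02, and 1.74 and 1.88 when any 1 CT library was left out, where no gene of the table was called, and the calls were lost without the variance trend.

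Of the 12 receptor genes found, 4 were higher in Ly6Chigh MCs and 1 was lower, beside 5.37% and 6.76% of all genes, with a list median of 0.076 beside -0.082 over all genes. The higher ones were the LTB4 receptor Ltb4r1 (log2FC 1.78, SE 0.240, limma adjusted p = 0.000603), the prostacyclin receptor Ptgir (1.74, SE 0.187, adjusted p = 0.000169), the cysteinyl leukotriene receptor Cysltr1 (1.49, SE 0.172, adjusted p = 0.000246) and the PGE2 receptor Ptger2 (1.20, SE 0.21, adjusted p = 0.00245). Ltb4r1 was 3.99 and 4.23 in the CT, 4.03 in the T1DM and 4.67 in the T2DM Ly6Chigh libraries, and 2.49 and 2.16, 1.66 and 3.52 in the Ly6Clow libraries of the same groups, without overlap. The thromboxane receptor Tbxa2r was lower (-2.87, SE 0.465, limma adjusted p = 0.00166), with values from -2.23 to -0.07 in Ly6Chigh and from 1.49 to 2.40 in Ly6Clow MCs. The adjusted p of Ptger2 passed just above the limit without CT Ly6Chigh replicate 2 (log2FC 1.14, limma adjusted p = 0.0105), without the T2DM libraries (1.23, 0.0113) or either of them, or without the variance trend (1.20, 0.0106), with log2FC near the main value. That of Tbxa2r did so without the T1DM libraries (-2.81, limma adjusted p = 0.0115) or either of them, and its subsets did not overlap. Tbxas1, which makes the ligand of Tbxa2r, was higher in Ly6Chigh MCs.

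Among genes of PAF metabolism, 1 of 7 was higher and 1 lower, beside 5.37% and 6.76% of all genes. The PAF receptor Ptafr had a log2FC of 2.11 (SE 0.160, limma adjusted p = 2.44e-05), with 6.72 and 6.75 in the CT, 6.79 in the T1DM and 7.41 in the T2DM Ly6Chigh libraries and from 4.70 to 5.00 in Ly6Clow MCs. It was thus higher in the same subset as the PAF hydrolase Pla2g7. The PAF acetylhydrolase subunit Pafah1b3 was lower (-2.83, SE 0.346, limma adjusted p = 0.000346).

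The shares of all genes called in the pooled test, 5.37% higher and 6.76% lower, also stand beside the counts of the other lists. Among arachidonic acid release genes, 2 of 11 were higher, the lysosomal phospholipase Pla2g15 (1.32, SE 0.158, limma adjusted p = 0.000306) and the diacylglycerol lipase Daglb (1.02, SE 0.120, limma adjusted p = 0.000273). Of the 9 other leukotriene and lipoxygenase enzymes found, Cotl1, which encodes a protein that binds 5-lipoxygenase, was higher (1.17, SE 0.134, limma adjusted p = 0.000247), and Mgst2, which can make LTC4 like Ltc4s, was lower (-2.29, SE 0.280, limma adjusted p = 0.000344). Mgst2 was 3.09 and 1.82 in the CT, 2.42 in the T1DM and 2.92 in the T2DM Ly6Chigh libraries, and from 4.49 to 5.45 in Ly6Clow MCs. Of the 9 other prostanoid enzymes, 0 were called in the pooled test, and 2 had an unadjusted p under 0.05 in limma, as had 7117 of all 16486 genes. In transport and breakdown, 2 of 10 were higher, the exporter Abcc4 (1.30, SE 0.146, limma adjusted p = 0.000209) and the prostaglandin reductase Ptgr1 (2.21, SE 0.466, limma adjusted p = 0.0064), and the epoxide hydrolase Ephx1 was lower (-2.78, SE 0.247, limma adjusted p = 5.77e-05). Of these calls, that of Daglb was lost as its log2FC fell under the 2-fold limit without the T1DM libraries or either of them (0.94), without CT Ly6Clow replicate 1 (0.99) or with quantile normalization (0.89). That of Cotl1 was lost in the same way without the T2DM libraries or either of them (0.99) or with quantile normalization (0.95). Ptgr1 stayed called without CT Ly6Clow replicate 2 and lost the call without any other single library and without the variance trend (limma adjusted p = 0.0244).

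**Figure D4:**
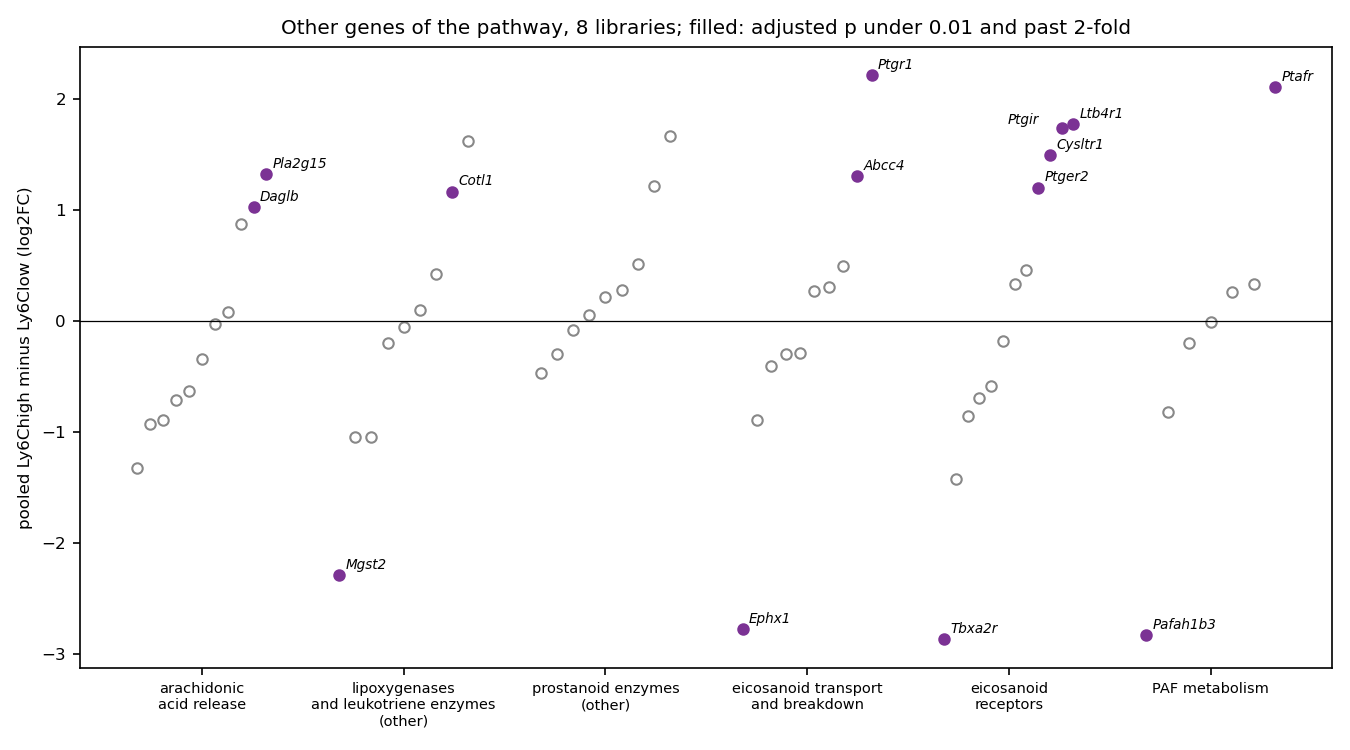
Pooled log2FC of Ly6Chigh minus Ly6Clow (y axis) for the 58 other pathway genes found, grouped by list (x axis), each point a gene, filled and named where called. Receptors hold 4 called genes above 0 and Tbxa2r at -2.87 below, and the other prostanoid enzymes hold no filled point.

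Between the models, 2 of the 58 genes were called, beside 0.588% of all genes, both lower in T2DM MCs. Hpgd, the dehydrogenase that inactivates prostaglandins, was 7.01 and 6.88 in the CT, 7.96 in the T1DM and 4.42 in the T2DM Ly6Chigh libraries, and 6.53 and 6.56 in the CT, 7.59 in the T1DM and 4.51 in the T2DM Ly6Clow libraries. The models were far apart in both subsets (log2FC -3.31, SE 0.161, limma adjusted p = 4.65e-05). Alox12, the platelet-type lipoxygenase, was 6.76 and 6.81 in the CT, 7.41 in the T1DM and 5.57 in the T2DM Ly6Chigh libraries, and 6.81 and 6.89 in the CT, 7.89 in the T1DM and 5.77 in the T2DM Ly6Clow libraries (log2FC -1.98, SE 0.145, limma adjusted p = 0.000403). The call of Alox12 was lost without the variance trend (limma adjusted p = 0.0159). Both genes were higher in T1DM than in T2DM MCs, as was the platelet marker sum, and the part of platelets in them was not tested. Against CT and in the interaction, 0 of the 58 genes were called by limma. CT values lie near the midpoint of the models, and differences between the models entered the spread of the interaction. These counts thus say little about the 58 genes.

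**Figure D5:**
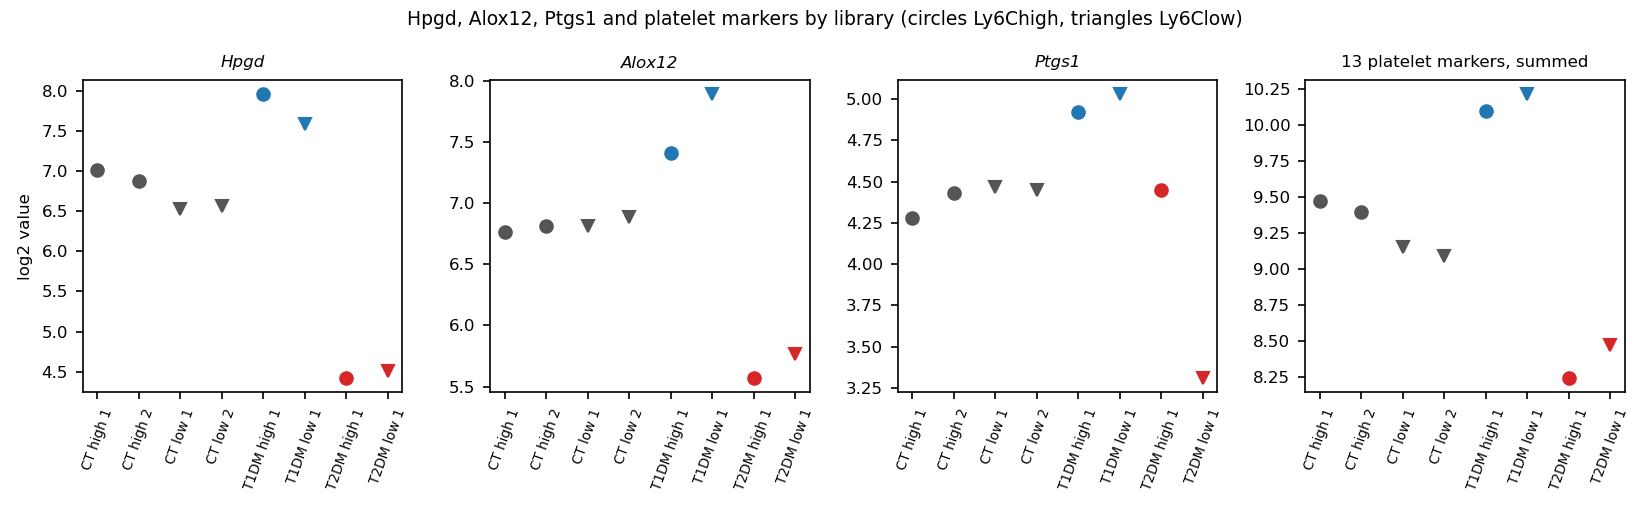
Log2 value (y axis, its range differing between panels) of Hpgd, Alox12 and Ptgs1 and log2 of the summed linear values of 13 platelet markers in each of the 8 libraries (x axis), coloured by mouse group, with circles for Ly6Chigh and triangles for Ly6Clow MCs. In Hpgd, Alox12 and the marker sum both T1DM libraries lie above both T2DM libraries, and in Ptgs1 the T2DM Ly6Chigh library (4.45) lies among the CT libraries.

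For genes of the set whose mean over the libraries was 5 or more on the log2 scale, the genes with the most similar pattern over the 8 libraries were sought among 5217 genes, by the root mean square difference of values centred on the mean of each gene. Alox5ap was nearest to Mtus1 (0.0998) and Mpeg1 (0.124), which encodes a pore-forming protein of phagocytes, beside a spread of 1.15 of Alox5ap about its own mean. Mtus1 was 7.96 and 7.87 in the CT, 7.93 in the T1DM and 8.24 in the T2DM Ly6Chigh libraries, and from 5.27 to 6.07 in Ly6Clow MCs. Tbxas1 was nearest to I830077J02Rik (0.141) and Mocs1 (0.174), beside 0.607, and Lta4h to Cyb5r3 (0.0578) and Fut8 (0.0629), beside a spread of only 0.166. The points of these patterns share the libraries, so the likeness is a description.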

How the data were processed

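RNA from flow-sorted MC subsets of 5 pooled mice a group was sequenced. The authors ran Kallisto (0.45; their processing notes name build mm10), summarized transcripts to genes in R 3.6.1 with tximport 1.12.3, and deposited normalized log2 values of 16486 genes, from -4.05 to 15.64. The scaling between libraries, any batch adjustment and whether values are per transcript length are not given in the sources used here. Libraries were assigned by their column names, which match the sample titles. Differences were taken from the deposited values without a pseudocount. Tests used limma 3.58.1 (lmFit, eBayes with a variance trend) in R 4.3.3 across all genes, checked on simulated data. Differences of 1 library from another or from the CT mean have no test. In interactions of a single model with CT, the CT libraries alone give the spread. The interaction over both models had no term for the model, so its spread includes differences between T1DM and T2DM mice. The 10 genes and the gene lists were chosen with earlier results of these data known. Genes named are the 10, called genes of the pathway lists and the 2 most similar genes of each of the 10 whose mean was 5 or more. The genes most similar to Pla2g7 are not reported here. Protein sequences, planned for some genes, were not used here. Of a gene's 31-base sequences, at most 1.51% (Tbxas1) occurred in other genes' transcripts. Alternatives were a low-value filter, adding 1, quantile normalization, no trend, a limit of 0.05 on adjusted p, pairing by replicate number (the replicate block), and leaving out libraries or models. Tables and figures used Python 3.11.15 (numpy 2.4.6, pandas 2.3.3, matplotlib 3.10.9).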

Additional observations from a re-analysis of the deposited data

Results flagged for a closer look

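In the results below the groups moved in opposite directions in every library. With 1 library of each subset in a diabetic model, such opposite signs also arise from small differences. Differences that involve CT were tested as an interaction of subset and mouse group in limma without the libraries of the other model. There each diabetic model has 1 library of a subset, so the CT libraries alone give the spread (2 residual degrees of freedom), and the diabetic libraries are assumed to vary like them. No gene of the table was called in these fits, so a missed call says little about a gene. Differences between T2DM and T1DM mice, with 1 library of each subset on either side, were not tested.

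Ly6Chigh minus Ly6Clow of Pla2g4a was -1.03 in CT and -0.39 in T1DM but 1.48 in T2DM mice. T2DM minus CT of Pla2g4a was 1.52 in Ly6Chigh and -0.996 in Ly6Clow MCs, and T2DM minus T1DM was 0.77 and -1.11. The interaction of T2DM against CT was 2.52 (SE 0.765, limma adjusted p = 0.323).

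Ly6Chigh minus Ly6Clow of Ptgs1 was -0.10 in CT and -0.11 in T1DM but 1.14 in T2DM mice. T2DM minus CT of Ptgs1 was 0.091 in Ly6Chigh and -1.15 in Ly6Clow MCs, with an interaction of 1.24 (SE 0.237, limma adjusted p = 0.223).

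T1DM minus CT of Ltc4s was -0.91 in Ly6Chigh and 0.80 in Ly6Clow MCs, with an interaction of -1.70 (SE 1.06, limma adjusted p = 0.613), and T2DM minus T1DM was 2.24 and -0.69.

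T2DM minus CT of Tbxas1 was -0.29 in Ly6Chigh and 0.46 in Ly6Clow MCs, with an interaction of -0.74 (SE 0.547, limma adjusted p = 0.615), and T2DM minus T1DM was -0.43 and 0.10.

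For Lta4h, T1DM minus CT was -0.069 in Ly6Chigh and 0.37 in Ly6Clow MCs, T2DM minus CT was 0.040 and -0.063, and T2DM minus T1DM was 0.11 and -0.43. The interactions were -0.44 (SE 0.159, limma adjusted p = 0.463) for T1DM and 0.10 (SE 0.162, limma adjusted p = 0.823) for T2DM against CT.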

How the results depend on the processing

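Alox5ap and Pla2g7 stayed called in the pooled subset test under every alternative run. Of 739 gene values under the alternatives, 635 kept their direction and their side of the threshold, 84 lost and 9 gained the call, and 11 turned direction. This tally held the 10 genes and the called pathway genes. For diabetic minus CT it held only Alox5, Alox5ap and Pla2g7 of the 10, and for the interaction only Pla2g4a. Values outside the tally also turned direction. In diabetic minus CT, Ptges (0.15) was -0.11 without CT Ly6Clow replicate 1. In the interaction, Ltc4s (-0.24) was 0.32 without CT Ly6Chigh replicate 1. Of 240 untested differences of the 10 genes, 32 moved by more than the spread of the CT replicates. The depth behind the values is unknown, and low values, as of Ptgs2 and Ltc4s, are the least precise. The cause of the changes below was not tested.

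In CT, the 2 of the 10 genes and 581 of all genes called became 0 and 0 without the variance trend, 0 and 0 with the replicate block, and 0 and 0 whichever library was left out, the block and the left-out libraries leaving 1 residual degree of freedom. The count of all genes was 1089 with the low-value filter and 1936 at an adjusted p limit of 0.05. Quantile normalization moved the median log2FC of all genes from -0.087 to 0.020 here and from -0.082 to 0.038 in the pooled test.

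In the pooled test, the 5 of the 10 genes called became 3 without the trend and 3 without the T1DM libraries, and from 3 to 5 when 1 library was left out. Pla2g4a (-0.24) ranged from -0.82 to 0.11 when 1 library was left out, with 0.043 without CT Ly6Chigh replicate 2, and Ptgs1 (0.20) ranged from -0.11 to 0.31, with -0.11 without the T2DM libraries or either of them.

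For T2DM minus T1DM, the 1 of the 10 genes called became 0 without the trend. The 97 of all genes became 26 without the trend, 253 at the 0.05 limit, 62 with the block, and from 24 to 146 when 1 library was left out. When 1 library was left out, Pla2g4a (-0.17) ranged from -1.32 to 0.98, Lta4h (-0.16) from -0.40 to 0.075, Ltc4s (0.77) from -0.28 to 1.83 and Tbxas1 (-0.17) from -0.50 to 0.17, so each turned direction, Pla2g4a without T2DM Ly6Clow, Lta4h without T1DM Ly6Clow, Ltc4s without either Ly6Chigh library (-0.28 and -0.13) and Tbxas1 without T2DM Ly6Chigh.

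For diabetic minus CT, without the T1DM libraries 1 of the 10 genes (Pla2g7) and 30 of all genes were called. The count of all genes was 6 with the filter, 6 with 1 added and 7 at the 0.05 limit, and Pla2g7 was -0.67 without the T2DM libraries. In the interaction 3 genes were called at the 0.05 limit. Of single libraries, the 2 genes past 2-fold in T1DM against CT Ly6Chigh MCs became 0 and the 4 in T2DM against T1DM Ly6Chigh MCs became 2 with 1 added, and the 1 in T1DM against CT Ly6Clow MCs became 2 without CT Ly6Clow replicate 2.

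No pairing of the CT libraries by replicate number was seen, as their deviations from the group means correlated at 0.0089 across genes between the subsets. All genes entered this correlation, also those with low and noisy values, so it cannot exclude a pairing. With the replicate block, the pooled test called 4 of the 10 genes, without Ptgs2.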
